A study of Mus musculus with 9 samples.

Results

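Klf2, Klf3, Klf4, Klf6, Klf7, Klf9, Klf10, Klf13 and Piezo1 are 9 of the 24321 genes listed in expression profiles of mouse meningeal lymphatic endothelial cells (MLECs), and they were taken by gene symbol alone. All 9 were above 0 in all 9 libraries, and all 9 were among the 9955 genes that passed the filter on low values (at least 1 FPKM in at least 3 libraries). FPKM, fragments per kilobase of transcript per 1000000 mapped fragments, is a level scaled by gene length, so levels of different genes can be set side by side. The Krüppel-like factors (KLFs) are transcription factors with zinc fingers that bind GC-rich and CACCC sequences. In endothelial cells, laminar flow acts through the MEKK, ERK5 and MEF2 kinase and transcription factor cascade to induce KLF2 and KLF4, which hold the vessel wall in a quiescent, anti-thrombotic state. PIEZO1 is a cation channel opened by membrane stretch, and in lymphatic vessels it takes part in valve formation under flow.

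The MLECs came from the meninges of male mice aged 10 weeks, and the tumor models use C57BL/6 mice. Tumor-bearing mice had received GL261 glioma cells (collected after about 3 weeks) or B16 melanoma cells (after about 2 weeks), both syngeneic to that strain, and control mice had received phosphate-buffered saline (PBS), for which the labels give no separate collection time. The sources conflict for these libraries: the labels place the injection in the cisterna magna, a fluid space below the cerebellum, and give the times above, whereas the text of the study describes a subdural injection and in one place the same collection time for all groups. That text also names podoplanin (PDPN) in place of LYVE-1 in one account of the sort. Each group had 3 libraries, each made by a Smart-seq2 protocol from 10 sorted cells out of a pool of 6 mice, after collagenase digestion at body temperature and staining for CD31, CD45 and LYVE-1. Every value is therefore the average of a few cells of 1 pool. GL261 and B16 libraries are together called tumor-associated MLECs (n = 6).

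The promoters of the 3 genes on which the comparisons turn, Klf2 and Klf4 as the flow-induced pair and Klf9 as the gene furthest from its control level, are shown first. Each is the 250 bases before the transcription start, 5′ to 3′ on the gene's strand, from RefSeq (GRCm38.p6). Capitals mark matches on either strand to CACCC, the core of a KLF site, to GGGCGG, the GC box that KLF and SP factors share, or to the MEF2 motif. The windows are chr8:72318812-72319061 (plus strand) for Klf2, chr4:55532476-55532725 (minus) for Klf4 and chr19:23140976-23141225 (plus) for Klf9.
Klf2: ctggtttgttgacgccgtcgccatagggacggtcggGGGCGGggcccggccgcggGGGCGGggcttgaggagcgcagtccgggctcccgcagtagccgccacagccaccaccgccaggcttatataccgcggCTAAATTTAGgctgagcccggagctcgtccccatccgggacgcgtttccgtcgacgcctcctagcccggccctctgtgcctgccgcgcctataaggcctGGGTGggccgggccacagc
Klf4: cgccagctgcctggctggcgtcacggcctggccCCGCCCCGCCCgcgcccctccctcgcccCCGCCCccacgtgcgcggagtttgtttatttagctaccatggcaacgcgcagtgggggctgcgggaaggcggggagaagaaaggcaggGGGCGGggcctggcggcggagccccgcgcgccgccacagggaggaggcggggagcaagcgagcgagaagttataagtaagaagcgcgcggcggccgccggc
Klf9: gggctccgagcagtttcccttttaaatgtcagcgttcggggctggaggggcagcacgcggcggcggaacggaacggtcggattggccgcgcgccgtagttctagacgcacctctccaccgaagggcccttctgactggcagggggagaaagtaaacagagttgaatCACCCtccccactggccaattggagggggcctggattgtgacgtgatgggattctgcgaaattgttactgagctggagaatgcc
The Klf2 window held the MEF2 match CTAAATTTAG from 118 to 109 bases before the start, and it was the only one of the 8 promoters found in the RefSeq table for the 9 genes to hold one. Of all 32851 promoter windows of that length, 2.92% held a MEF2 match, 52.0% held CACCC and 32.7% held GGGCGG. The Klf4 window held 4 GC boxes, 2 of which overlap, and no CACCC, whereas the Klf9 window held 1 CACCC and no GC box. These are matches of letters only, and no measurement of binding belongs to these data.

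The genes lie apart on the mouse genome, apart from Klf2 and Piezo1, which share chromosome 8. On the mm9 build, Klf2 spans chr8:74842932-74845555 (plus strand), Klf4 chr4:55540013-55545347 (minus), Klf9 chr19:23215716-23241401 (plus) and Piezo1 chr8:125005598-125075229 (minus). Klf3 spans chr5:65194628-65221368 (plus), Klf6 chr13:5860735-5869639 (plus), Klf7 chr1:64076021-64168856 (minus), Klf10 chr15:38221219-38230464 (minus) and Klf13 chr7:71031237-71083801 (minus). FPKM was given per gene, so the values cover the annotated exons and no isoform was read.

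The libraries differed in depth along with the groups. Low FPKM values lie close to whole multiples of a single fragment, and from that step the control libraries hold about 1192270 to 1918700 fragments, the B16 libraries 2017550 to 4655590 and the GL261 libraries 4540600 to 8252600. Genes above 0 numbered 7303 to 8688 per control library and 8736 to 10852 per tumor-associated library. Depth and tumor bearing cannot be told apart, since each control library was shallower than each tumor-associated library. The approximate number of fragments behind 1 value ranged from 13 for Klf7 to 4242 for Klf6, and amplified fragments are not independent molecules. Lymphatic markers were above 0 in all groups, but 3 of 6 tested (Flt4, Mmrn1 and Reln) were lower in tumor-associated MLECs at a limma adjusted p under 0.05. All 6 had negative differences, 5 of them at an unadjusted p under 0.05, with a median log2 difference of -2.07. Prox1 ranged over 20.9 to 42.2 FPKM among control and 1.87 to 16.5 FPKM among tumor-associated libraries. Ccl21a, not tested, was at most 2.87 FPKM in any library. Of 8 blood endothelial markers, 7 were higher at an adjusted p under 0.05, against 3.93% of all genes tested. The summed blood endothelial level was 2332 to 3100 FPKM among control and 6060 to 9549 FPKM among tumor-associated libraries. Cldn5 (1497 to 1702 FPKM) and Plvap (686 to 1390 FPKM) made up most of the control sum. Ly6c1 was at 0 in control and at 393 to 4375 FPKM in tumor-associated libraries. Flt1 was at most 0.856 FPKM in control and at 49.0 to 156 FPKM in tumor-associated libraries. Cldn5 alone had a negative difference (-0.63, limma unadjusted p = 0.0303, adjusted p = 0.211). The part of these markers in the results was not tested. Of the 5 fibroblast markers, Dcn alone was tested, at 15.7 to 44.9 FPKM among control and at most 0.146 FPKM among tumor-associated libraries (log2 difference -4.60, limma adjusted p = 0.00110). Of 12 genes that every cell uses, 3 were higher in tumor-associated MLECs at a limma adjusted p under 0.05, against 3.93% of all genes tested. These were Tbp, Gapdh (1.21, adjusted p = 0.00672) and Actb (0.74, adjusted p = 0.0181), and their part in the results was not tested either. In such small pools, fewer cells of a type and less RNA per cell cannot be told apart. Control replicate 1 held the smooth muscle transcripts Acta2 (505 FPKM) and Tagln (641 FPKM), against at most 6.34 and 2.15 FPKM in the other 8 libraries. Of 7 leukocyte markers, 3 were tested and 0 passed in limma. Ptprc was listed at 0 in every library. Lyz2 ranged from 0 to 324 FPKM, with its highest values in GL261 replicate 2 (324 FPKM) and control replicate 2 (145 FPKM). Cd79a was above 0 only in control replicate 2 (22.4 FPKM).

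To find which of the 9 genes differed with the tumors, tumor-associated MLECs were compared with control MLECs by limma on log2(FPKM + 1), with Benjamini-Hochberg adjusted p-values taken over all 9955 genes. None of the 9 passed an adjusted p of 0.05, against a background of 3.93% of all genes tested (391 genes). At an unadjusted p under 0.05 there were 2 of 9, Klf9 and Klf10, against 19.0% of all genes. The mean was higher for 5 genes and lower for 4, with a median difference of 0.02 on the log2 scale against 0.20 over all genes. The shift of all genes was 0.05 when each library was rescaled to the same sum, and the differences given here are without that rescaling, under which those of Klf3 and Klf13 changed sign.

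**Figure D1:**
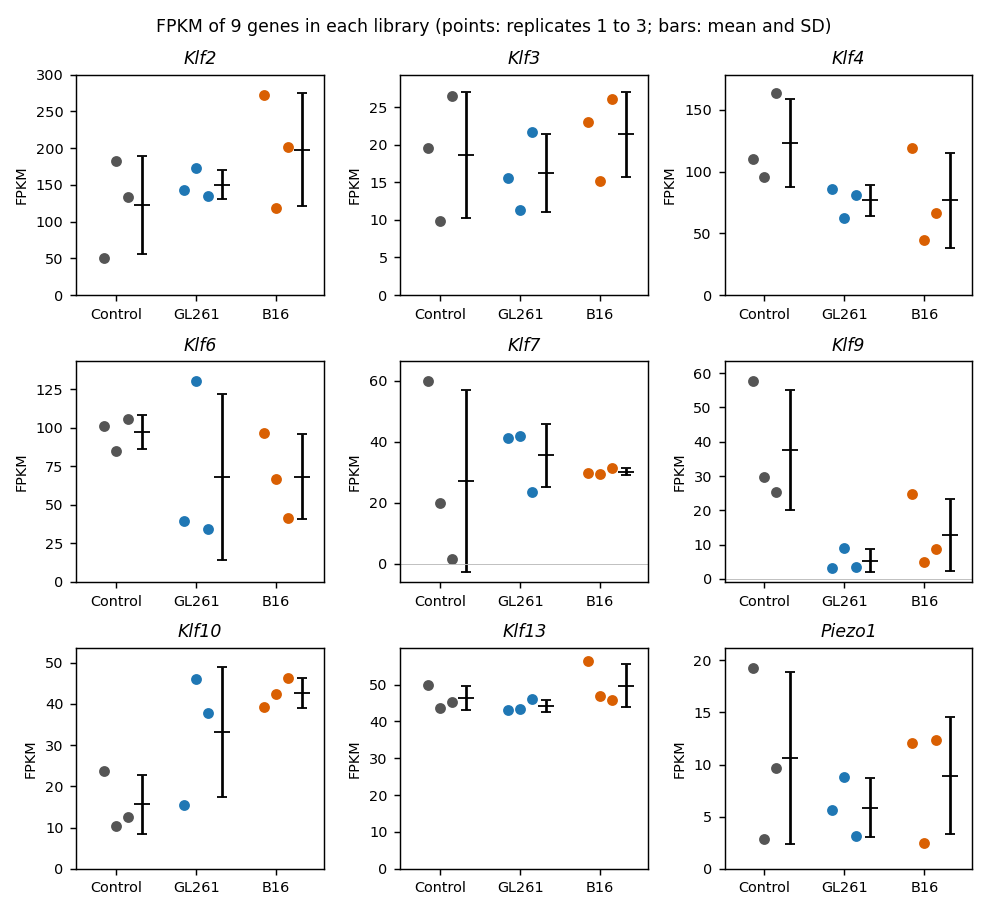
FPKM (vertical axes, each from 0 or below) of the 9 genes in the 3 control, 3 GL261 and 3 B16 libraries, with points for libraries and bars for mean and SD. All 3 control points of Klf9 lie above all 6 tumor-associated points, while Klf13 stays between 43.1 and 56.3 FPKM throughout.

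Klf2, the flow-induced factor that limits endothelial inflammation and clotting, was the highest of the 9 genes in 7 of 9 libraries. Klf2 was at 51.1, 182 and 134 FPKM in control replicates 1 to 3, at 143, 172 and 135 FPKM in GL261, and at 273, 119 and 202 FPKM in B16. The lowest value was control replicate 1 and the highest B16 replicate 1, and the groups overlapped. The means were 122 ± 66.3 FPKM in control MLECs, 150 ± 19.8 in GL261 and 198 ± 76.9 in B16 (SD, n = 3 each), so neighbouring groups in this order did not differ beyond their spread. In limma, the tumor-associated mean of Klf2 was higher by 0.63 (SE 0.42, 95% interval -0.27 to 1.53, adjusted p = 0.430) on the log2(FPKM + 1) scale, and without control replicate 1 by 0.10. A two-sided exact permutation test of that gene alone gave p = 0.214.

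Klf4, the partner of Klf2 in the response to laminar flow, lay on average on the other side of its control level. Klf4 was at 110, 95.6 and 164 FPKM in control, at 86.0, 62.5 and 81.4 FPKM in GL261, and at 119, 44.8 and 66.2 FPKM in B16. All 3 GL261 values lay below all 3 control values, a pattern shown by 8.84% of all genes tested, and only B16 replicate 1 reached into the control range. The means were 123 ± 36.0 FPKM in control MLECs, 76.6 ± 12.4 in GL261 and 76.7 ± 38.3 in B16 (SD, n = 3 each). The difference between tumor-associated and control MLECs was -0.70 (SE 0.38, interval -1.52 to 0.11, limma adjusted p = 0.336, exact permutation p = 0.0595), which did not pass. In control MLECs, Klf2 and Klf4 had nearly the same mean level, though the ratio of Klf2 to Klf4 was 0.463, 1.91 and 0.816 in replicates 1 to 3.

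Klf9, which glucocorticoid and thyroid hormone receptors induce in many tissues, showed the largest separation of the 9 genes. Klf9 was at 57.6, 29.7 and 25.3 FPKM in control, at 3.23, 9.14 and 3.46 FPKM in GL261, and at 24.6, 5.06 and 8.76 FPKM in B16. Every tumor-associated library lay below every control library, though B16 replicate 1 lay only just below control replicate 3. This pattern held for 1 of 9 genes and for 4.44% of all genes tested. The means were 37.5 ± 17.5 FPKM (SD, n = 3) in control and 9.05 ± 8.05 FPKM (SD, n = 6) in tumor-associated MLECs. The difference in mean log2(FPKM + 1) was -2.15 (SE 0.68, interval -3.62 to -0.68), with an unadjusted limma p of 0.00756 and an adjusted p of 0.103. Turned back from the log2 scale, this is a 4.45-fold higher control level of FPKM + 1. The exact permutation p was 0.0238, where 0.0119 is the smallest that 3 libraries against 6 can give. Without B16 replicate 1 the difference was -2.48 and passed (limma adjusted p = 0.0491), and without control replicate 1, the library with smooth muscle transcripts, it was -1.80 (adjusted p = 0.257). With the number of detected genes as a covariate it was -1.18 (adjusted p = 0.751).

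Klf10, an early gene of the TGF-β response, was higher on average in both tumors. Klf10 was at 23.8, 10.5 and 12.6 FPKM in control, at 15.6, 46.1 and 37.7 FPKM in GL261, and at 39.2, 42.3 and 46.4 FPKM in B16. GL261 replicate 1 alone fell within the control range, and all 3 B16 libraries lay above all control libraries, as did 10.2% of all genes tested. The means were 15.6 ± 7.19 FPKM in control MLECs, 33.2 ± 15.8 in GL261 and 42.6 ± 3.57 in B16 (SD, n = 3 each). The difference was 1.23 (SE 0.50, interval 0.14 to 2.32, limma unadjusted p = 0.0298, adjusted p = 0.210, exact permutation p = 0.0238). It did not pass the adjusted threshold.

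Klf6, which is induced after vascular injury, was close to Klf4 in level. Klf6 was at 101, 84.9 and 106 FPKM in control, at 39.5, 131 and 34.5 FPKM in GL261, and at 96.4, 67.0 and 41.7 FPKM in B16. The control values were close together, whereas the GL261 values spanned the range of all other libraries. The difference of -0.67 (SE 0.46, interval -1.67 to 0.32) had a limma adjusted p of 0.446.

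Klf7, best known for its role in neurons, varied most in control MLECs. Klf7 was at 60.1, 19.8 and 1.51 FPKM in control, at 41.4, 41.8 and 23.5 FPKM in GL261, and at 29.9, 29.3 and 31.4 FPKM in B16. The control libraries thus held both the highest and the lowest of the 9 values, while the B16 libraries lay close together. The difference of 1.18 (SE 0.78, limma adjusted p = 0.435) was -0.10 without control replicate 3.

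Klf3, a repressor that recruits CtBP, was at 19.6, 9.81 and 26.6 FPKM in control, at 15.6, 11.3 and 21.7 FPKM in GL261, and at 23.0, 15.1 and 26.2 FPKM in B16. The 3 groups covered the same range, and the difference was 0.06 (SE 0.53, interval -1.08 to 1.20, limma adjusted p = 0.964). This interval leaves room for a change of either sign of about the size seen for Klf10.

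Klf13, a factor first described as a regulator of CCL5 in T cells, had nearly the same level in all libraries. Klf13 was at 49.9, 43.6 and 45.4 FPKM in control, at 43.1, 43.4 and 46.1 FPKM in GL261, and at 56.3, 47.0 and 45.8 FPKM in B16. The highest value was 1.31 times the lowest, and the coefficient of variation was 8.92%. The SD of its log2 level over the 9 libraries, 0.120, was the second smallest of the 9955 genes tested, after that of the translation elongation factor gene Eef1a1 (0.119). None of the 735 genes within 0.5 log2 units of its mean level had a smaller SD, whereas 61.1% of genes of like level had a smaller SD than Klf2 and 50.5% a smaller SD than Klf9. The difference was 0.02 (SE 0.35, interval -0.75 to 0.78, limma adjusted p = 0.988). This SE is wider than the spread of Klf13 itself because limma draws it towards that of genes of like level.

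Piezo1, the stretch-activated channel, was the lowest of the 9 genes in 6 of 9 libraries. Piezo1 was at 19.3, 2.85 and 9.69 FPKM in control, at 5.67, 8.81 and 3.11 FPKM in GL261, and at 12.1, 2.44 and 12.3 FPKM in B16. Each group held low and high libraries, and the values overlapped fully. The means were 10.6 ± 8.26 FPKM in control MLECs, 5.86 ± 2.86 in GL261 and 8.94 ± 5.63 in B16 (SD, n = 3 each), an order in which no neighbours differed beyond their spread. The difference of -0.35 (SE 0.77, interval -2.01 to 1.30, limma adjusted p = 0.851) was 0.20 without control replicate 1, so its sign rested on that library.

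Each tumor was then compared with control MLECs in a limma fit of all 3 groups, and both comparisons share the control libraries. In GL261 MLECs, 0 of 9 genes passed (background 3.49%), and 1 of 9 had an unadjusted p under 0.05 (background 16.9%). That gene was Klf9, with a difference of -2.65 (SE 0.76, limma adjusted p = 0.0916). In B16 MLECs, 0 of 9 passed (background 2.11%), and 1 of 9 had an unadjusted p under 0.05 (background 15.0%). That gene was Klf10, with a difference of 1.47 (limma adjusted p = 0.266), while Klf9 was at -1.66 (adjusted p = 0.334), with all B16 values below all control values as for 7.0% of all genes.

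The direct comparison of GL261 with B16 MLECs sets the 2 tumor groups side by side. These also differed in collection time (about 3 against about 2 weeks), which cannot be told apart from the tumor, and most GL261 libraries were deeper. The comparison called 0 of 9 genes, against 0.01% of all genes (1 gene), and 0 of 9 at an unadjusted p under 0.05, against 5.5%. For Klf9 the GL261 mean minus the B16 mean was -0.99 in log2(FPKM + 1) (limma adjusted p = 1.0), so a difference between tumors was not detectable for it.

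**Figure D2:**
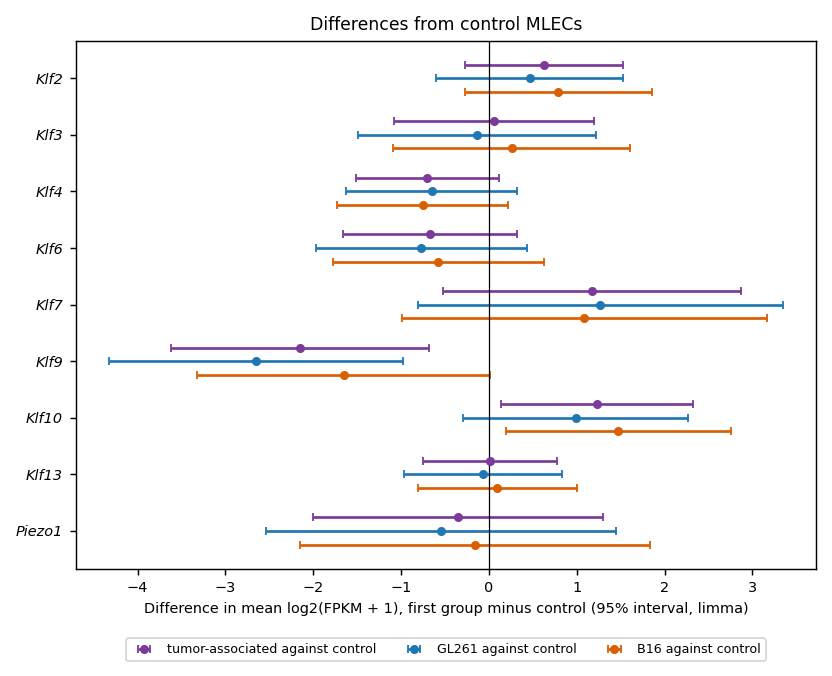
Differences in mean log2(FPKM + 1) from control MLECs (horizontal axis) for the 9 genes, with 95% limma intervals, for both tumors joined and for each tumor. The joined intervals of Klf9 and Klf10 leave out 0 before adjustment, and those of the other 7 genes hold 0.

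The methods of the study name a ROC power, a rank measure of how well a gene separates the groups, as the criterion for choosing genes. Computed here on FPKM with a limit of 0.4 and an added fold limit (at least 0.25 in the natural log of mean FPKM + 1), it was met by 5 of 9 genes (Klf2, Klf4, Klf6, Klf9 and Klf10) and by 49.2% of all genes tested. This count is near the background.

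Within the family, the levels can be read as a share of the summed FPKM of the 17 Klf genes listed. That sum was 374 to 669 FPKM, or 0.0469% to 0.0881% of all FPKM in a library. Klf2, Klf4 and Klf6 together made up 53.5% to 75.7% of it. Klf9 made up 11.7%, 6.02% and 4.75% in control libraries but 0.821% to 3.68% in tumor-associated libraries. Klf2 made up 10.4%, 36.9% and 25.1% in control and 31.8% to 41.3% in tumor-associated libraries, so its share overlapped only through control replicate 2.

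**Figure D3:**
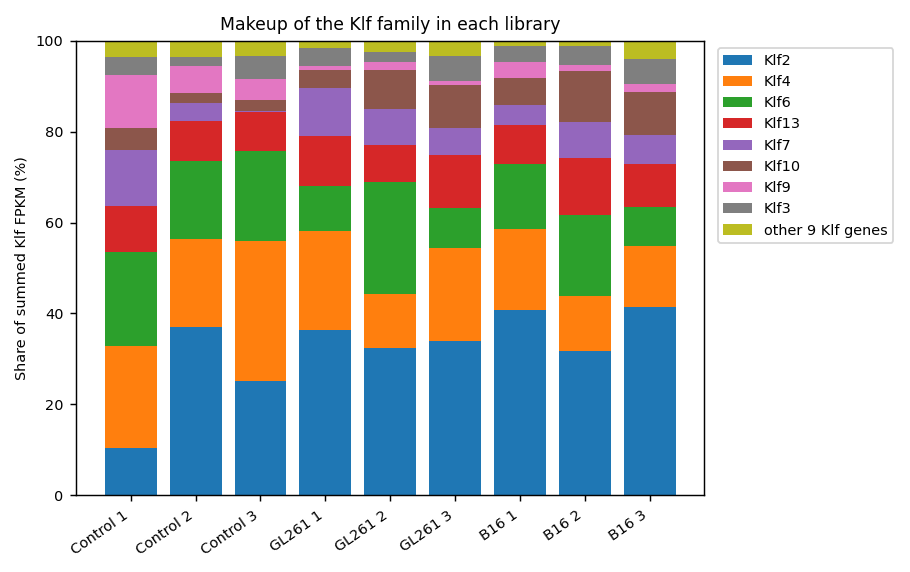
Share (%) of the summed Klf FPKM taken by each Klf gene in each of the 9 libraries (stacked bars, 1 per library). Klf2, Klf4 and Klf6 fill 53.5% to 75.7% of every bar, and the Klf9 layer is at most 3.68% in the tumor-associated bars.

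Of the other 9 Klf genes, Klf1, Klf8, Klf14 and Klf17 were listed at 0 in all libraries, and Klf5 was above 0 (0.178 FPKM) only in B16 replicate 2. Only 3 were tested, 0 passed in limma and 1, Klf15, had an unadjusted p under 0.05. Klf15, a metabolic factor that glucocorticoids induce, was at 0, 8.64 and 15.6 FPKM in control and at 0 in 5 of 6 tumor-associated libraries, with 3.02 FPKM in GL261 replicate 2. Its difference of -2.11 had a limma adjusted p of 0.210, and one of 0.0390 without control replicate 1. Klf11, a paralog of Klf10, ranged from 0.211 to 9.04 FPKM (difference 0.59, limma adjusted p = 0.755), and Klf16 from 0 to 10.7 FPKM (0.66, adjusted p = 0.760). Klf12 was above 0 in 6 libraries and reached 6.03 FPKM in control replicate 1, and it was not tested.

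Genes that KLF2 or KLF4 are known to raise were higher in tumor-associated MLECs in 2 of 6 tested members (of 9 listed), and all 6 had an unadjusted p under 0.05 and were higher, with a median difference of 1.48 against 0.20 over all genes. Over all genes tested, 3.93% passed and 19.0% had an unadjusted p under 0.05. Ptgds, Nov and Cyp1b1 of this list were not tested and did not share 1 direction. Ptgds was at 98.9 FPKM in control replicate 2 and at most 0.867 FPKM elsewhere. The mean of Nov was 1.17 FPKM in control and 0.0719 FPKM in tumor-associated MLECs. Cyp1b1 was above 0 only in GL261 replicate 1 (3.21 FPKM). Nos3, the endothelial nitric oxide synthase gene, was at 0, 2.80 and 1.27 FPKM in control, against 8.10 to 56.0 FPKM across the tumor-associated libraries (difference 3.62, SE 0.76, limma adjusted p = 0.0186). Ass1, which recycles citrulline to arginine for nitric oxide synthesis, was at 0, 0 and 0.592 FPKM in control, against 21.5 to 221 FPKM across the tumor-associated libraries (6.43, SE 0.67, adjusted p = 1.70e-04). Thbd, the gene of the anticoagulant receptor thrombomodulin, was at 12.8, 50.3 and 13.2 FPKM in control, against 36.4 to 111 FPKM across the tumor-associated libraries (1.49, SE 0.53, adjusted p = 0.148), which did not pass. Nos3 did not pass without control replicate 1 (adjusted p = 0.0675) or B16 replicate 3 (0.0525), whereas Thbd passed without control replicate 2 (0.0391). These genes are also expressed by blood endothelial cells, whose markers differed with the groups as given above. Of 6 genes that KLF2 or KLF4 are known to lower, such as the endothelin gene Edn1, 0 passed in limma and 2 had an unadjusted p under 0.05, both higher, with a median difference of 1.36 (over all genes, 3.93%, 19.0% and 0.20).

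Of 13 genes linked to the MEKK, ERK5 and MEF2 cascade or to the CCM complex, 1 passed, against 3.93% of all genes. At an unadjusted limma p under 0.05 there were 2 of 13, Heg1 and Hdac5, against 19.0% of all genes. Hdac5 was lower (-2.43, SE 0.77, limma adjusted p = 0.105). Heg1, the receptor that anchors the CCM complex, had a listed level of 0 in every control library and was at 23.7, 21.6 and 6.37 FPKM in GL261 and 11.3, 5.86 and 15.5 FPKM in B16 (limma adjusted p = 0.0101). Tbp, a general transcription factor of every cell, was also listed at 0 in 2 control libraries, so a listed 0 need not be absence. Mapk7, the gene of ERK5, ranged from 0 to 18.7 FPKM (difference -0.23, adjusted p = 0.936), and Mef2c ranged from 5.64 to 41.2 FPKM (-0.48, adjusted p = 0.734).

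Among 14 tested flow-sensing genes (of 15), 1 passed, and the counts for this and the next lists stand beside 3.93% of all genes. At an unadjusted limma p under 0.05 there were 4 of 14, against 19.0% of all genes. Of these, 3 were higher and 1 lower, and the median difference of the list was 0.21. Flt4, the VEGF-C receptor of lymphatic endothelium that also takes part in shear sensing, ranged over 174 to 220 FPKM among control and 40.1 to 106 FPKM among tumor-associated libraries (-1.80, SE 0.37, limma adjusted p = 0.0160), and it did not pass without control replicate 3 (0.0527). Of 12 lymphatic valve genes, 1 passed, with Gata2, a valve transcription factor, higher by 3.31 (SE 0.83, adjusted p = 0.0431), while Prox1, the lymphatic master regulator, was at -2.79 (adjusted p = 0.0509). Of the 12, 5 had an unadjusted limma p under 0.05, against 19.0% of all genes, with 2 higher and 3 lower. The lower ones were Prox1, Gja4 (-3.97) and Nfatc1 (-1.29), and the median difference of the list was -0.27. Of 12 tested YAP and TAZ genes (of 14), 1 passed, with the transcription factor gene Tead2 higher by 3.31 (adjusted p = 0.0461). With 1 library left out, Gata2 passed only without control replicate 2 or B16 replicate 1 (adjusted p otherwise up to 0.125), and Tead2 only without control replicate 3 or GL261 replicate 2 (up to 0.130). With the number of detected genes as a covariate in the limma fit, 0 of the 8 genes called over these and the early response lists passed (6 at an unadjusted p under 0.05), and 13 of all genes did.

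Klf2, Klf4, Klf6 and Klf10 also belong to the early genes that enzymatic digestion can induce, so a separate list of 16 early response genes was counted. Of these, 2 passed, against 3.93% of all genes. Egr1 fell by 1.31 (SE 0.29, limma adjusted p = 0.0231) and Zfp36 rose by 1.30 (SE 0.33, adjusted p = 0.0468). Egr1 did not pass without control replicate 1 (0.0997) or 2 (0.0646), and Zfp36 passed only without control replicate 1 or GL261 replicate 1 (otherwise up to 0.153). The summed level of the list was 3787 to 6515 FPKM in control, 3184 to 6446 FPKM in GL261 and 5127 to 8423 FPKM in B16 libraries, and its part in the values of the Klf genes was not tested.

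**Figure D4:**
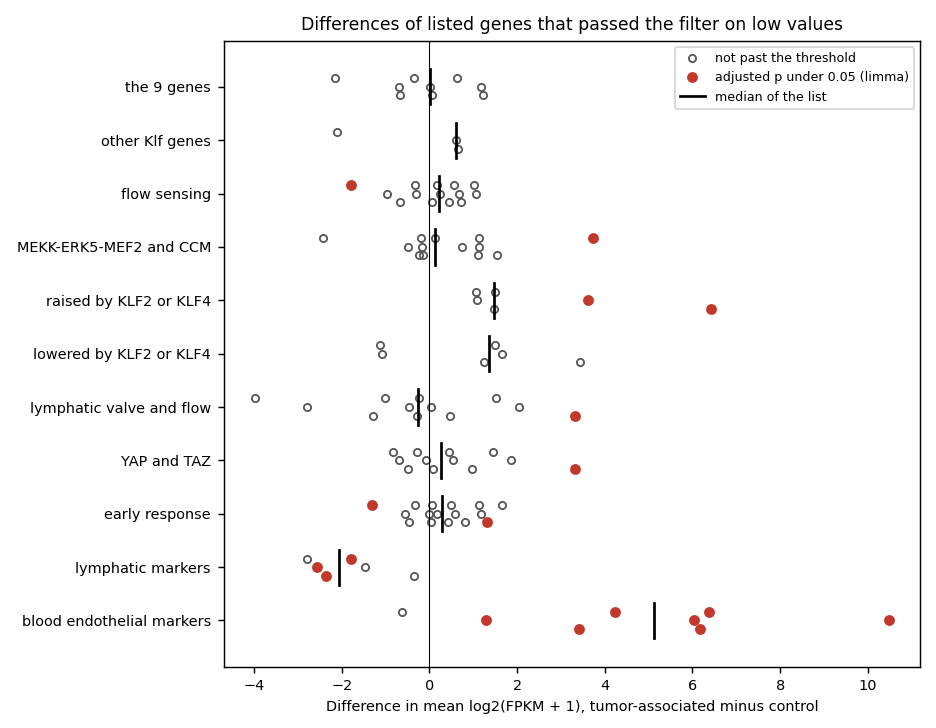
Difference in mean log2(FPKM + 1), tumor-associated minus control (horizontal axis), of each tested gene of the 9, of related lists and of the lymphatic and blood endothelial markers (rows), with filled points for an adjusted limma p under 0.05 and bars for medians. None of the 9 genes is filled, while 7 of 8 blood endothelial markers are.

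Across the 9 libraries, pairs of the 9 genes had Pearson correlations of log2(FPKM + 1) between -0.615 (Klf4 and Klf10) and 0.716 (Klf6 and Klf9). Klf2 and Klf4 had a correlation of -0.06. These are descriptions over 9 libraries that share depth and group. The genes whose pattern was most like that of Klf2 were Ccdc163 (r = 0.961), Trim62 (0.958) and Rfc2 (0.951), and those most like Klf4 were Zfp36l2 (0.939), Tmem68 (0.926) and Herpud2 (0.919). Those most like Piezo1 were Leng1 (0.954), BC048403 (0.950) and Rdh13 (0.945), each at its highest in control replicate 1.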

How the data were processed

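Gene levels were measured in 9 libraries, 3 each from control, GL261 and B16 MLECs. FPKM values were deposited by the authors, who used TopHat2 2.0.12 and Cufflinks 2.2.1 per the processing notes, with the mm9 build. From these FPKM values, log2(FPKM + 1) was fitted with limma 3.58.1 in R 4.3.3 (moderated with a trend, adjusted p threshold 0.05) over genes with at least 1 FPKM in at least 3 libraries. FPKM are not counts, so no count test was run. Single genes had two-sided exact permutation tests. The permutation tests went through all divisions of the libraries with numpy 2.4.6 under Python 3.11.15, and the plots used matplotlib 3.10.9. Depth was read from the steps of low values, of which 70.2% to 81.7% lay within 0.1 of a whole number of fragments.

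The genes and lists were chosen with earlier results of these data known. Genes named were the 9, other Klf genes above 0, list genes past the threshold (at most 5 a list), Nos3, Thbd, Mapk7 and Mef2c, and the 3 genes most correlated with Klf2, Klf4 and Piezo1. Acta2, Tagln, Tbp, Eef1a1, Edn1, Prox1, S1pr1, Gja4, Nfatc1, Hdac5, Fkbp5, Tsc22d3, Per1 and Sgk1 were named after their values were seen. So were Ptgds, Nov, Cyp1b1, Ccl21a, Cldn5, Plvap, Ptprc, Lyz2 and Cd79a. Alternatives were another pseudocount, scaling, filters, no trend, a replicate block, a covariate and leaving out each library. The replicate numbers did not pair the libraries.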

Additional observations from a re-analysis of the deposited data

Results flagged for a closer look

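Klf10 in GL261 replicate 1 (15.6 FPKM) was far below the other 5 tumor-associated libraries, with a gap to the nearest of 0.809 of the range of all 6. Klf13 in B16 replicate 1 (56.3 FPKM) was far above the other 5, with a gap of 0.676 of the range. Among 6 libraries a gap of the size that counts as far is met by chance in about 1 in 20 groups, and 9 genes were looked at.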

How the results depend on the processing

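Of 612 recomputed differences of the 9 genes (4 comparisons, 8 alternatives and 9 libraries left out in turn), 582 kept their direction and side of the threshold, 1 passed it and 29 changed sign, none of these past the threshold. Klf2, Klf4, Klf6, Klf9 and Klf10 kept their direction between tumor-associated and control MLECs throughout. The count of the 9 genes past the threshold was 0 to 1 when a library was left out, the 1 being Klf9 (-2.48) without B16 replicate 1, and 5 by ROC power. The count of list genes past the threshold, 8, was 5 under quantile normalization and under the replicate block and 4 with any FPKM above 0, in each case genes among the 8. It was 5 without a trend (4 of the 8, and Prox1) and 5 with FPKM above 0 in all 9 libraries (3 of the 8, the other 5 being filtered out, with Prox1 and S1pr1). It was 0 with the number of detected genes as a covariate in limma (6 of the 8 at an unadjusted p under 0.05), and 4 to 7 with a library left out, of which 4 to 6 were among the 8. Genes called overall (391) were 254 with any FPKM above 0, 212 with FPKM above 0 in all libraries, 13 with the covariate and 238 to 449 with a library left out. The replicate block called none of the 9 genes, and same-numbered libraries had correlations of deviations of -0.0334 to 0.0443.

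Sign changes under the covariate were Klf2 -0.56, Klf3 0.67 and Klf13 0.24 in GL261 against control, and Piezo1 0.12 in tumor-associated and 0.10 in B16 against control. After rescaling they were Klf3 -0.15 and Klf13 -0.21 in tumor-associated against control, Klf13 -0.046 in B16 against control and Klf4 -0.060 in GL261 against B16. With a library left out, the ranges in tumor-associated against control were -0.32 to 0.36 for Klf3, -0.10 to 2.2 for Klf7, -0.037 to 0.070 for Klf13 and -1.0 to 0.20 for Piezo1. In GL261 against control they were -0.066 to 0.84 for Klf2, -0.52 to 0.16 for Klf3, -0.0100 to 2.29 for Klf7 and -1.19 to 0.0094 for Piezo1. In B16 against control they were -0.12 to 0.55 for Klf3, -0.19 to 2.11 for Klf7 and -0.80 to 0.49 for Piezo1. In GL261 against B16 they were -0.22 to 0.47 for Klf4 and -0.79 to 0.15 for Klf6. The cause was not tested.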

Other observations

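The ratio of Klf2 to Klf4, chosen after the values were seen and not tested, was 0.463, 1.91 and 0.816 in control, 1.66, 2.76 and 1.66 in GL261 and 2.29, 2.66 and 3.05 in B16 libraries. Control replicate 2 lay within the GL261 range, and all B16 ratios were above all control ratios.

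Other genes that glucocorticoids induce were looked up after the low Klf9 and Klf15 values were seen, so the choice is not independent. Fkbp5 had a listed level of 0 in the 3 control libraries, against 9.75 to 30.5 FPKM across the 6 tumor-associated ones (limma adjusted p = 0.00160). Tsc22d3 ranged over 26.0 to 54.8 FPKM among control and 143 to 404 FPKM among tumor-associated libraries (difference 2.92, SE 0.38, adjusted p = 8.06e-04). Per1 (0.67, adjusted p = 0.761) and Sgk1 (0.32, adjusted p = 0.674) did not pass.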
